A study of Mus musculus with 8 samples.

Results

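The miRNAs described here are 10 mature miRNAs from the stretch of the imprinted Dlk1-Dio3 region that runs from the long noncoding RNA gene Meg3 to the Rtl1 antisense miRNAs: both arms of miR-770, miR-673, miR-493 and miR-337, together with miR-540-3p and miR-665-3p. They were chosen by name and position, and all 10 were found among the 1915 mature names listed for each library. The libraries are small RNA sequencing of brain prefrontal cortex from 12-week-old mice on a C57BL/6 background, 4 of wild type (replicates 1, 2, 3 and 4) and 4 of Fkbp5 knockout (replicates 1, 2, 4 and 5). Fkbp5 codes for an immunophilin that binds Hsp90 and dampens the response of the glucocorticoid receptor to stress hormone. The labels do not say how the knockout was made, whether it was constitutive, or whether each library came from a separate animal, so the p-values rest on a spread that may be technical. Small RNA libraries hold no Fkbp5 messenger RNA, so the genotype labels were not checked.

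Imprinted genes are expressed from the chromosome of 1 parent. In the Dlk1-Dio3 region the protein-coding genes Dlk1, Rtl1 and Dio3 are expressed from the paternal copy, and the noncoding RNAs Meg3, Rtl1 antisense, Rian and Mirg, with the many miRNAs cut from them, from the maternal copy. Much of the region's miRNA output is made in brain. A hairpin can release a miRNA from each of its arms (5p and 3p), and a loaded miRNA finds its targets mainly through its seed, bases 2 to 8 from its 5′ end.

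All 6 hairpins lie on the plus strand of chromosome 12 within 22716 bases (GRCm38). Mir770 lies inside Meg3 (109541001 to 109571726), in 4 annotated Meg3 transcripts, 1 of which has an exon over it. The other 5 lie beyond the annotated end of Meg3: Mir673 begins 264 bases past it and Mir493 8507 bases past it, and neither of these overlaps another annotated gene. Mir337, Mir540 and Mir665 sit together within 619 bases, and Mir665 ends 2786 bases before the annotated Rtl1 gene (109589193 to 109600330, minus strand). Mir3544 is annotated on the minus strand over Mir337, and its 2 arms averaged 0.112 and 0.699 over the 8 libraries after rescaling, against 4081 for miR-337-5p.

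The 6 hairpins are shown whole because the ratio between their arms is one of the main measurements. Capitals mark the 2 mature arms as RefSeq lists them (GRCm38.p6), with the 5p arm first.
Mir770, chr12:109563692-109563785: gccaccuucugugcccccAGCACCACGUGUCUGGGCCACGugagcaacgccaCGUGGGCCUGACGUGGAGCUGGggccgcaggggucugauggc
Mir673, chr12:109571990-109572080: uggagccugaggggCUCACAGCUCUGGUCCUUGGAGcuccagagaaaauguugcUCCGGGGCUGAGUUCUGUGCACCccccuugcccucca
Mir493, chr12:109580233-109580315: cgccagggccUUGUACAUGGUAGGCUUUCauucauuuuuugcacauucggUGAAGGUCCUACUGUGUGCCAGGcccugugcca
Mir337, chr12:109585789-109585885: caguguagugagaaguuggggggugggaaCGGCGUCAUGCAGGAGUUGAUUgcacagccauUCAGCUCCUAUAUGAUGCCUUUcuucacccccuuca
Mir540, chr12:109586080-109586146: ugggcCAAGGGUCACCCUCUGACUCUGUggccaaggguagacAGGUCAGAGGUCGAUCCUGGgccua
Mir665, chr12:109586314-109586407: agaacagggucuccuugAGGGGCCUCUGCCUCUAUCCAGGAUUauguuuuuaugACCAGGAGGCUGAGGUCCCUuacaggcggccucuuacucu

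The 10 mature sequences follow from the most to the least abundant, with the seed in capitals, to show that no seed is shared among them.
mmu-miR-770-5p: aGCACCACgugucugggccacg
mmu-miR-337-5p: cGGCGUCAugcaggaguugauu
mmu-miR-770-3p: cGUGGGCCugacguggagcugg
mmu-miR-493-5p: uUGUACAUgguaggcuuuc
mmu-miR-673-5p: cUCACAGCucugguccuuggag
mmu-miR-665-3p: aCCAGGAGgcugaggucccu
mmu-miR-540-3p: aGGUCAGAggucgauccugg
mmu-miR-673-3p: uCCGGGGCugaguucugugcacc
mmu-miR-337-3p: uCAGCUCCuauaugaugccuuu
mmu-miR-493-3p: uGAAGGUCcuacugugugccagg

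Each of the 10 has its own seed, so by that measure they form no seed family, although they come from 1 locus. Each mature sequence occurs at 1 locus in the RefSeq table. Outside the group, 2 seeds recur once each in that table: that of miR-673-5p in miR-6985-3p and that of miR-540-3p in miR-6915-5p. Neither of these passed the filter on low values (means of 1.09 and 7.29 after rescaling).

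The sequences are rich in G and C. The GC content had a median of 59.5% over the 10, against 47.8% over the 510 tested miRNAs with a RefSeq sequence (85.1% of the 599 tested), and 8 of the 10 lay above that median. miR-770-3p reached 72.7%, higher than 98.0% of them, and miR-770-5p 68.2%. miR-337-3p (40.9%) and miR-493-5p (42.1%) were the 2 below the median.

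The deposited values are called normalized counts in the file headers, but all are whole numbers and they may be raw counts, which the sources used here do not settle. The values of a library summed to between 16180699 and 21555993. Values were rescaled between libraries and tested as log2(value + 1) by limma, and a miRNA was tested if it reached 10 in at least 4 libraries, which all 10 did. The levels of different miRNAs are set side by side without a length correction, since the mature forms are 19 to 23 bases long. Differences in adapter ligation between sequences were not tested. The neuronal and cortical miRNAs miR-124-3p, miR-128-3p, miR-9-5p and miR-132-3p were abundant in every library, with a summed rescaled value of 6347563 at the lowest.

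The levels of the 10 miRNAs spanned nearly 3 orders of magnitude. miR-770-5p, from the hairpin inside Meg3, was the highest, with a mean rescaled value of 7129 over the 8 libraries (range 5247 to 8914), which placed it 88th among all names. miR-337-5p followed at 4081 (3606 to 4496, 118th). miR-770-3p averaged 1471 (1174 to 1852) and miR-493-5p 1209 (1043 to 1378). These 4 made up most of the group's summed value.

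Below them came miR-673-5p at 443 (316 to 539.97), miR-665-3p at 306 (242 to 395) and miR-540-3p at 246 (206 to 298). miR-673-3p averaged 95.8 (80.9 to 105). The lowest were miR-337-3p at 20.9 (12.7 to 28.3) and miR-493-3p at 12.6 (9.25 to 16.7), the latter near the filter of 10. The order did not follow position on the chromosome: the highest hairpins, Mir770 and Mir337, lie toward opposite ends of the stretch.

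Of the 9 neighbouring pairs in this order, 5 had ranges over the 8 libraries that did not overlap. The ranges overlapped for miR-770-3p and miR-493-5p, for miR-673-5p and miR-665-3p, for miR-665-3p and miR-540-3p, and for miR-337-3p and miR-493-3p. In each of these 4 pairs the first was the higher in 7 of 8 libraries.

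**Figure D1:**
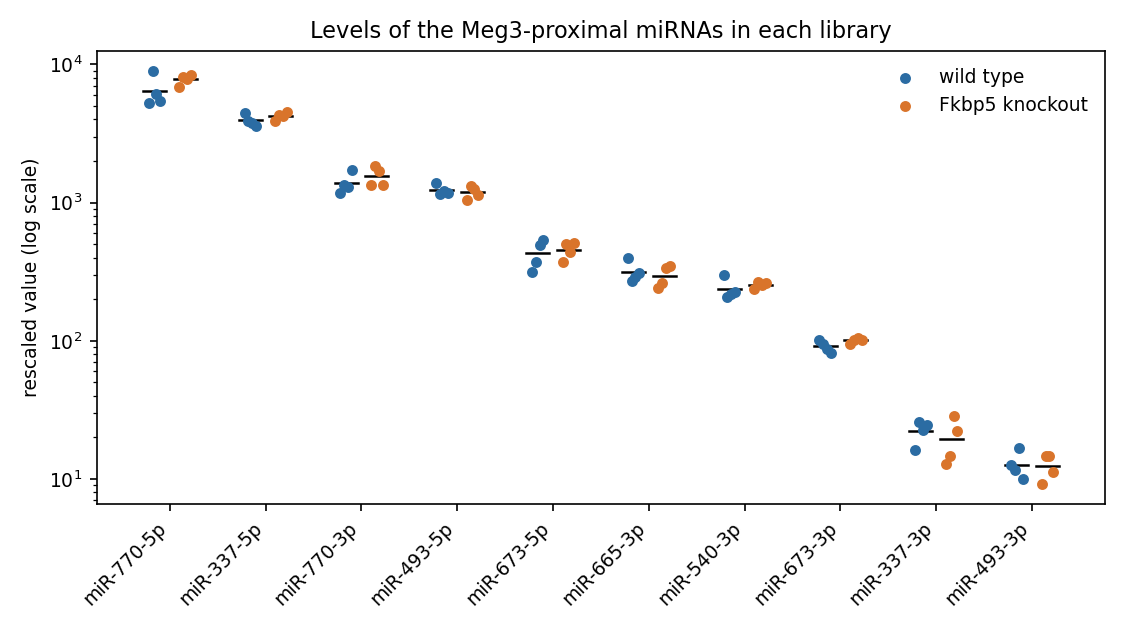
Rescaled value (log scale) of each of the 10 miRNAs in each library, in order of mean level; blue points are the 4 wild-type and orange points the 4 Fkbp5 knockout libraries, and black lines are group means. The groups overlap for all 10, and the high wild-type point of miR-770-5p (8914) is replicate 2.

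As a group, these miRNAs were a small part of the region's output. Their summed rescaled value was 14087 ± 1475 (SD, n = 4) in wild type and 15943 ± 1237 (SD, n = 4) in the knockout, and miR-770-5p alone made up 45.2% ± 6.82 and 49.1% ± 1.09 of it. Of the sum over all Dlk1-Dio3 miRNAs listed here, the 10 held 2.94% ± 0.484 in wild type and 3.37% ± 0.242 in the knockout. The Rtl1 antisense group (miR-431, miR-433, miR-127, miR-434, miR-432, miR-136 and miR-3071, with miR-3070 just before Rtl1) held 40.2% ± 2.55 and 38.7% ± 2.08, and the miR-379 to miR-410 group near Mirg 55.9% ± 1.97 and 56.9% ± 1.96. The groups of libraries overlapped in the first of these shares, which ran from 2.39% to 3.60%. The most abundant neighbour, miR-434-3p of the Rtl1 antisense group, averaged 131960.4, and miR-382-5p, the highest of the miR-379 to miR-410 group, 41419.

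Each hairpin had 1 arm that was higher in all 8 libraries. It was the 5p arm for miR-770, miR-673, miR-493 and miR-337 and the 3p arm for miR-540 and miR-665, so the preferred arm changed between Mir337 and its close neighbours Mir540 and Mir665. Over all 187 hairpins whose lower arm averaged 5 or more, the 5p arm was the higher in 54.0%.

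The hairpins differed in how lopsided they were. For miR-770 the 5p arm was 4.94 times the 3p arm over all libraries and for miR-673 4.56 times. Both ratios were under the median of 11.4 over the 187 hairpins. For miR-493 it was 96.7 times and for miR-337 195 times, more lopsided than 75.4% and 84.5% of those hairpins. The minimum of 5 on the lower arm leaves out hairpins with a nearly empty arm, miR-665 among them, so the median and these shares do not cover such hairpins. The opposite arms of miR-540 and miR-665 are listed too. miR-540-3p was 29.3 times miR-540-5p, whose rescaled value averaged 8.53 and failed the filter. The value of miR-665-3p was 312 times that of miR-665-5p, which was at 0 in 4 libraries and at 1, 4, 1 and 2 as deposited in the others.

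**Figure D2:**
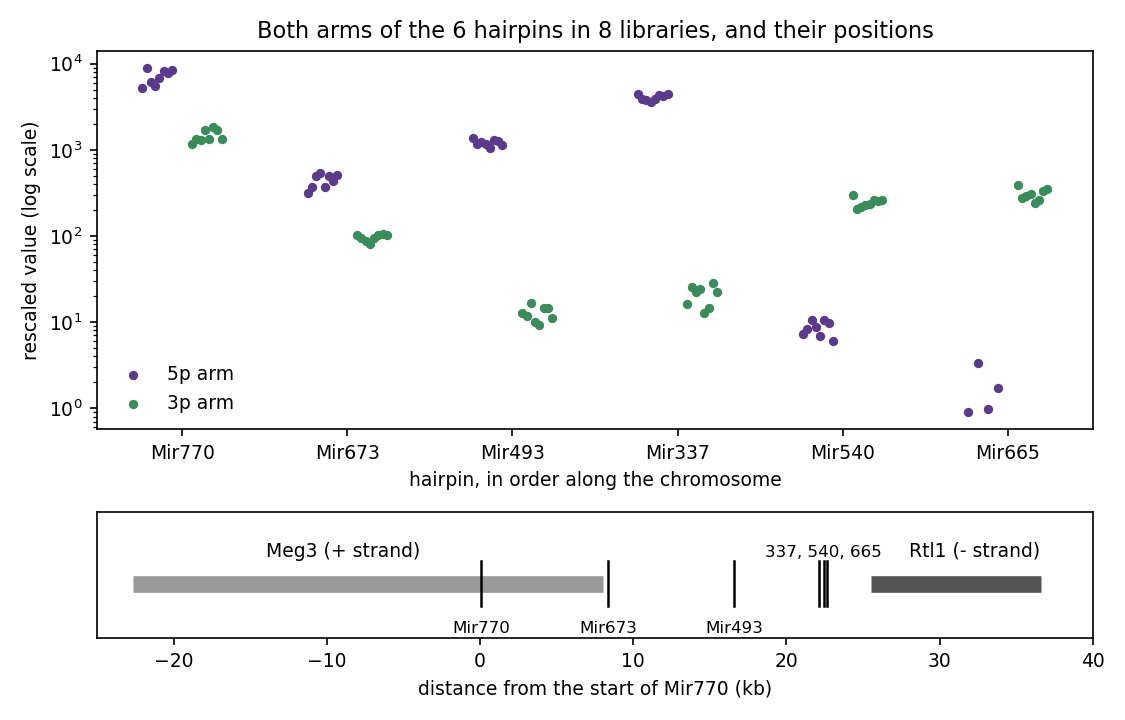
Upper plot: rescaled value (log scale) of both arms of the 6 hairpins, 1 point per library, in chromosomal order; miR-665-5p is at 0 in 4 libraries, which a log scale cannot show. Lower plot: positions of the hairpins between Meg3 and Rtl1, to scale in kilobases from the start of Mir770. The 5p arm (purple) is the higher for the first 4 hairpins and the 3p arm (green) for the last 2.

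The first base of a miRNA is one of the features that bear on loading into Argonaute, for which U or A is usual. Among the 149 of those hairpins that have the sequences of both arms in RefSeq, the higher arm began with U in 46.3%, A in 26.8%, C in 15.4% and G in 11.4%. Of the 6 hairpins here, only miR-493 had a higher arm that began with U. The higher arms of miR-770, miR-540 and miR-665 began with A, and those of miR-673 and miR-337 with C. For miR-673 and miR-337 the lower arm began with U, a combination (higher arm not U, lower arm U) found in 15.4% of the 149. In the first 4 bases, the higher arm held more A or U than the lower arm for miR-770, miR-673 and miR-665 (2 against 1 in each), as many for miR-493 and miR-540, and fewer for miR-337 (0 against 2). Over the 149 hairpins it held more in 40.3% and fewer in 26.8%. With 6 hairpins these are descriptions and carry no test.

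The comparison of the genotypes asks whether these miRNAs differ in cortex that lacks Fkbp5. None of the 10 passed the threshold. By limma with Benjamini-Hochberg adjustment over 599 miRNAs, 0 of 10 had an adjusted p under 0.05, where 0 of all 599 passed (0%), and each of the 10 had an adjusted p of 0.994. At an unadjusted p under 0.05 the count was 0 of 10, against 24 of 599 (4.01%). The groups overlapped for all 10, and did not for 9 of 599 miRNAs (1.5%). Of the 10, 6 had a higher mean log2 value in the knockout and 4 a lower one, with a median log2 fold change of 0.10, while the median over all 599 was 0.02, with 53.9% higher.

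miR-770-5p came nearest to a difference. Its rescaled values were 5247, 8914, 6090.0 and 5476 in wild-type replicates 1, 2, 3 and 4. In knockout replicates 1, 2, 4 and 5 they were 6898, 8157, 7799 and 8453. The knockout libraries lay above 3 of the wild-type libraries, and wild-type replicate 2 lay above all of the knockout libraries. Wild type averaged 6432 ± 1693 and the knockout 7827 ± 674 (SD, n = 4 each). The log2 fold change was 0.31 ± 0.16 (SE), with a 95% interval of -0.04 to 0.66 and an unadjusted p of 0.0768 by limma. Leaving out single libraries moved the log2 fold change both ways. It was 0.48 ± 0.12 without wild-type replicate 2 (limma unadjusted p = 0.00193, adjusted p = 0.949) and 0.23 without wild-type replicate 1 or without wild-type replicate 4 (limma unadjusted p = 0.178 and 0.180).

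Wild-type replicate 2 differed from the other wild-type libraries in other ways too. Its markers of epithelium and olfactory bulb (miR-200a-3p, miR-200b-3p and miR-183-5p) summed to 4155, the highest of the 8 libraries, and so did its markers of endothelium (24187), smooth muscle (77415), oligodendrocytes (934) and microglia and leukocytes (630). Knockout replicate 5, the next highest for miR-770-5p, had the next highest sum of the epithelium and olfactory bulb markers (3529), while wild-type replicate 3, with 3213, had 6090.0 of miR-770-5p. The lowest sums of the neuronal and cortical markers were 6349194 in wild-type replicate 2 and 6347563 in knockout replicate 5, and the other 6 lay between 7129859.6 and 8360122. Other libraries did not follow this. Knockout replicates 2 and 4, with 8157 and 7799 of miR-770-5p, had epithelium and olfactory bulb sums of 799 and 929. Wild-type replicate 1, the lowest for miR-770-5p, had the neuronal and cortical sum of 7129859.6. The part of these markers in the values of miR-770-5p was not tested. In bulk tissue, fewer cells of a type and less RNA per cell cannot be told apart.

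The other arm of the same hairpin did not follow miR-770-5p from library to library. miR-770-3p was at 1174, 1332, 1292 and 1714 in wild type and at 1348, 1852, 1707 and 1348 in the knockout. Its highest wild-type library was replicate 4, where miR-770-5p was among the lowest. The log2 fold change was 0.18 ± 0.15 (95% interval -0.16 to 0.52).

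miR-337-5p was the steadiest of the 10 across libraries. It was at 4445, 3904, 3786 and 3606 in wild type and at 3872, 4292, 4247 and 4496 in the knockout. Wild-type replicate 1 and the knockout libraries intermingled, and the highest library was 1.25 times the lowest. The log2 fold change was 0.11 ± 0.11, and its interval of -0.13 to 0.34 excluded a change of 1.5-fold in either direction.

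miR-493-5p was at 1378, 1155, 1218 and 1169 in wild type and at 1043, 1314, 1254 and 1137 in the knockout. Knockout replicate 1 was the lowest and wild-type replicate 1 the highest. Its log2 fold change was -0.05 ± 0.12 (95% interval -0.32 to 0.21). It was 0.01 without wild-type replicate 1, so its sign rests on single libraries.

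miR-673-5p was at 316, 371, 496.2 and 539.97 in wild type and at 375, 502, 438 and 507 in the knockout. Wild-type replicates fell on both sides of the knockout libraries. The log2 fold change was 0.10 ± 0.19 and became -0.03 without wild-type replicate 1. miR-673-3p, at 80.9 to 102 in wild type and 94.8 to 105 in the knockout, differed by 0.15 ± 0.15 on the log2 scale.

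Mir540 and Mir665 are close neighbours with the same preferred arm. miR-540-3p was at 298, 206, 219 and 227 in wild type and at 237, 265, 254 and 264 in the knockout. miR-665-3p was at 395, 272, 290.3 and 309 in wild type and at 242, 261, 335 and 347 in the knockout. Wild-type replicate 1 was the highest library for both. Their log2 fold changes were 0.12 ± 0.15 and -0.10 ± 0.17, and without that library they were 0.24 and 0.0191. Without wild-type replicate 2 miR-540-3p was at 0.05.

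The low arms gave wide intervals. miR-337-3p ran from 16.2 to 25.7 in wild type and from 12.7 to 28.3 in the knockout (log2 fold change -0.23 ± 0.30, 95% interval -0.88 to 0.42). Its log2 fold change was -0.056 without knockout replicate 1 and -0.43 without knockout replicate 4. miR-493-3p ran from 9.98 to 16.7 and from 9.25 to 14.7 (-0.03 ± 0.29, 95% interval -0.66 to 0.60). In the fit of all 8 libraries, the 95% interval excluded a 2-fold change for all 10 miRNAs, as it did for 86.5% of the 599. It excluded a 1.5-fold change for 7 of 10, against 56.4% of the 599. Like the p-values, these intervals rest on a spread between libraries that may be technical.

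**Figure D3:**
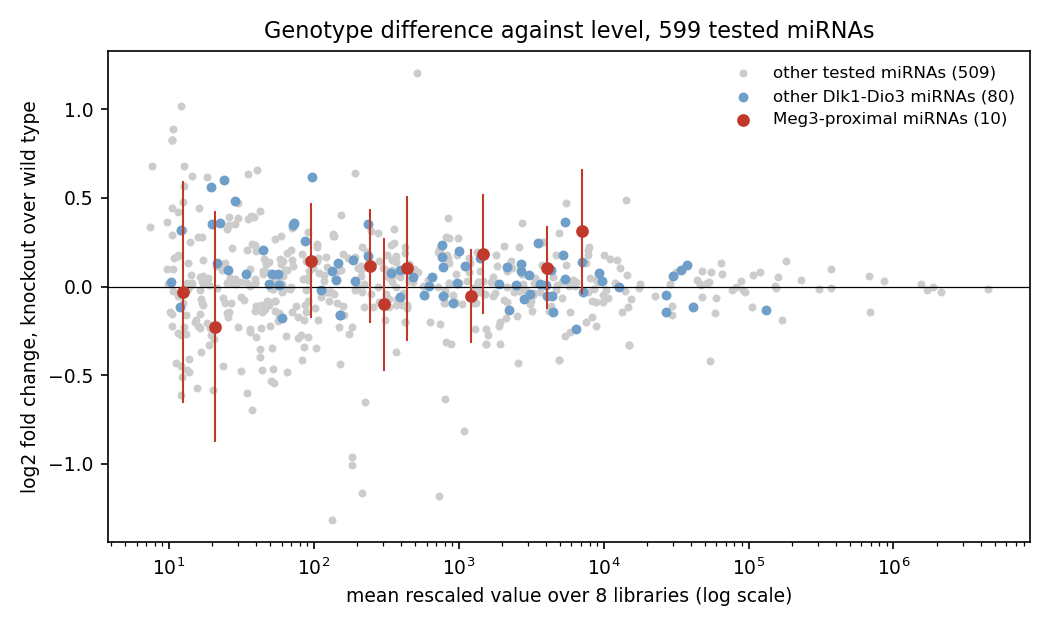
Log2 fold change (knockout over wild type) against mean rescaled value (log scale) for the 599 tested miRNAs; red points are the 10 Meg3-proximal miRNAs with 95% intervals, blue points the 80 other tested Dlk1-Dio3 miRNAs. Each red interval crosses 0, and the highest red point is miR-770-5p at 0.31.

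Arm ratios were compared by genotype through the log2 of 5p over 3p within each library, which no scaling between libraries can change. By limma 0 of 141 hairpins whose lower arm averaged 20 or more passed an adjusted p of 0.05 (0%), and 3 (2.13%) had an unadjusted p under 0.05. miR-770, miR-673 and miR-337 were among the 141 and none was among those 3. The 3 were miR-299b (0.52 ± 0.18), miR-299a (0.51 ± 0.18) and miR-433 (-0.42 ± 0.17), all from the Dlk1-Dio3 region. miR-299a and miR-299b had nearly equal means in both arms (151.5 and 151.0 for 3p, 71.6 and 72.5 for 5p), so they are hardly separate results. How many of the 141 lie in the region was not counted. The 5p arm of miR-770 was 4.47, 6.69, 4.71 and 3.19 times the 3p arm in wild-type replicates 1 to 4 and 5.12, 4.40, 4.57 and 6.27 times in knockout replicates 1, 2, 4 and 5. The wild-type libraries held both the highest and the lowest ratio. The log2 difference between genotypes was 0.13 ± 0.22 (limma adjusted p = 0.975, 95% interval -0.35 to 0.61), and -0.046 without wild-type replicate 4.

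For miR-673 the same ratio was 3.12, 3.92, 5.71 and 6.67 in wild type and 3.95, 4.95, 4.19 and 5.01 in the knockout, a log2 difference of -0.04 ± 0.23 that ran from -0.24 to 0.13 when single libraries were left out. For miR-337 it was 275, 152, 167 and 148 in wild type and 304, 293, 149.8 and 201 in the knockout, a log2 difference of 0.34 ± 0.27. That difference became 0.54 when wild-type replicate 1 was left out, and 0.21 when knockout replicate 1 was. The 3p arm of miR-337 had deposited values of 11 to 31, so its ratio carries the most counting error of these 3. With the minimum at 5, miR-493 and miR-540 could be tested as well, with log2 differences of -0.02 ± 0.19 and -0.21 ± 0.26. miR-665-5p was too low for a test.

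The ratios of 3 hairpins varied between libraries of 1 genotype more than the median hairpin. The pooled SD of the log2 ratio was 0.35 for miR-770, 0.37 for miR-673 and 0.44 for miR-337, and the median over the 141 hairpins was 0.28. For miR-770, with over 1000 in each arm of every library, 64.5% of the hairpins had a smaller SD. Outside the 141, the SDs in wild type and the knockout were 0.29 and 0.16 for miR-493 and 0.43 and 0.36 for miR-540. The lower arms had deposited values of only 8 to 15 for miR-493 and 6 to 10 for miR-540. At such low values these SDs do not show whether a ratio is steady.

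**Figure D4:**
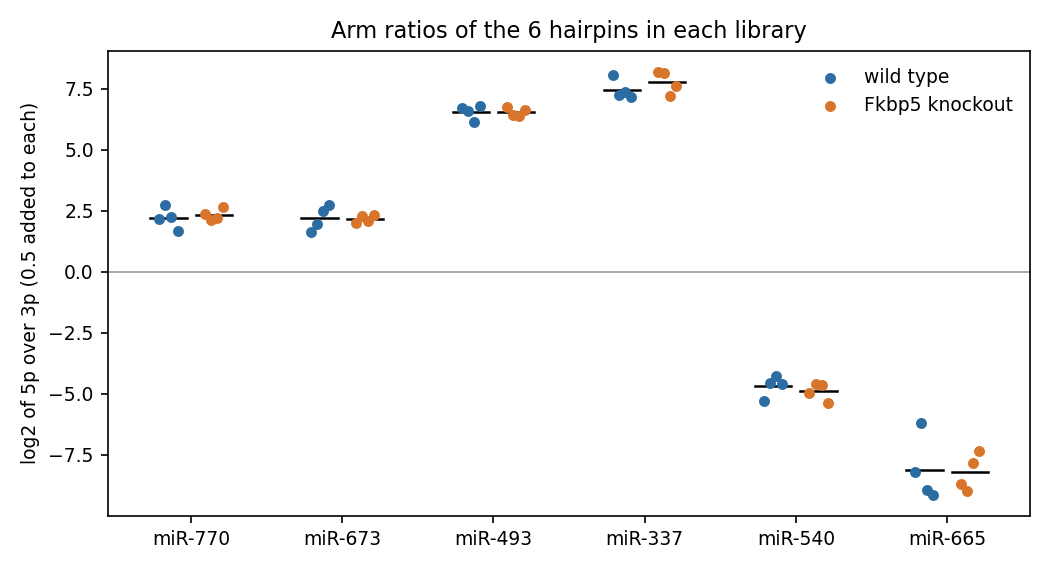
Log2 of the 5p over the 3p arm (0.5 added to each deposited value) for the 6 hairpins; blue points are the 4 wild-type and orange points the 4 knockout libraries, and black lines are group means. miR-770, miR-673, miR-493 and miR-337 lie above 0 in every library and miR-540 and miR-665 below 0, with the genotypes overlapping in each.

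The rest of the region was read beside these miRNAs. Of the 99 other Dlk1-Dio3 names 80 were tested, and 57 of these (71.2%) had a higher mean log2 value in the knockout, where 53.9% of all 599 did, with a median of 0.07 against 0.02. Both arms of a hairpin are counted here, so the names are not independent. The summed rescaled value of the 99 was no higher in the knockout, at 457262 ± 9474 against 469651 ± 53598 in wild type (SD, n = 4 each). In the Rtl1 antisense group 6 of 11 were higher (median 0.0043), in the miR-370, miR-341 and miR-1188 group near Rian 3 of 4 (median 0.05), and in the miR-379 to miR-410 group 48 of 65 (73.8%, median 0.07). By limma 0 of the 80 passed correction, and 3 (3.75%) had an unadjusted p under 0.05, near the 4.01% of all 599: miR-154-5p (0.62 ± 0.25), miR-1188-5p (0.60 ± 0.24) and miR-433-3p (0.36 ± 0.14). miR-433-3p was the 1 of the 80 (1.25%) whose groups did not overlap, against 1.5% of all 599. None of the most abundant miRNAs of these groups passed the test either. On the log2 scale miR-434-3p was at -0.13 ± 0.15, miR-127-3p at 0.09 ± 0.11, miR-136-3p at -0.24 ± 0.14, miR-370-3p at 0.01 ± 0.10, miR-370-5p at -0.05 ± 0.11 and miR-341-3p at 0.09 ± 0.16. Near Mirg, miR-382-5p was at -0.11 ± 0.13, miR-541-5p at 0.12 ± 0.13 and miR-379-5p at 0.06 ± 0.10.

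The likeness of profiles across the 8 libraries was measured as the root mean square difference of log2 values, each miRNA centred on its own mean, over the 599 tested miRNAs. A miRNA with a small spread tends to give small differences, and all profiles share the same libraries and scaling. The profile nearest to miR-337-5p was that of miR-673-3p (0.0507), followed by miR-98-5p (0.06) and miR-344d-3p (0.0849), where the median over all was 0.27 and the spread of miR-337-5p about its own mean 0.11. miR-540-3p came 7th (0.0935) and miR-493-5p 22nd. For miR-770-5p the nearest were miR-20a-5p (0.12), miR-384-5p (0.16) and miR-324-5p (0.16), with a median of 0.36. Its hairpin partner miR-770-3p stood at 0.31 and came 179th. For miR-770-3p the nearest were miR-760-3p (0.0928), miR-383-5p (0.0984) and miR-434-5p (0.12), the last from the Rtl1 antisense group.

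The spread within a genotype was compared by the coefficient of variation. It was the larger in wild type for 7 of the 10 miRNAs, a share close to the 68.4% of all 599. For miR-770-5p it was 26.3% in wild type and 8.62% in the knockout. For miR-337-3p it was the other way round, 19.1% and 36.9%, and miR-493-5p (8.31% and 10.2%) and miR-665-3p (17.2% and 17.8%) were the other 2 with the larger value in the knockout. No test of the spread was run.

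Markers of other cells were present in these bulk libraries and differed between them. In the knockout 0 of 2 oligodendrocyte, 0 of 2 endothelial, 0 of 2 smooth muscle and 0 of 3 epithelial and olfactory bulb markers had a higher mean log2 value than in wild type, and 1 of 3 for microglia and leukocytes, 1 of 2 for red blood cells and 1 of 3 for striated muscle. Of the hindbrain and spinal cord markers 2 of 3 were tested and both were lower, while the neuronal and cortical ones were split 2 and 2. Of all 599 tested miRNAs 53.9% were higher in the knockout. The summed levels overlapped between genotypes in every one of these lists. Of 23 single markers tested 4 had an unadjusted p under 0.05 by limma (adjusted p = 0.967 for each), where 24 of all 599 did (4.01%). All 4 were lower in the knockout, and 8 of the 24 were higher. The 4 were miR-219a-5p of oligodendrocytes (-0.60 ± 0.21), miR-143-3p of smooth muscle (-0.42 ± 0.17), and miR-10a-5p (-0.65 ± 0.24) and miR-10b-5p (-1.005 ± 0.36) of hindbrain and spinal cord. miR-219a-5p averaged only 34.4. Opposite arms outside the list were at -0.15 ± 0.14 (miR-219a-2-3p, mean 13492), -0.08 ± 0.13 (miR-338-5p, mean 9898) and 0.01 ± 0.29 (miR-219a-1-3p, mean 14.3). The smooth muscle sum ran from 55956 to 77415 in wild type and from 38320.3 to 67054 in the knockout, and the epithelial sum from 1146 to 4155 and from 592 to 3529. The neuronal and cortical sum ran from 6349194 to 8326513 and from 6347563 to 8360122. The other sums ran, in wild type and then the knockout, from 706 to 934 and 664 to 800.3 for oligodendrocytes, from 482 to 630 and 325 to 500.2 for microglia and leukocytes, and from 16908 to 24187 and 17078 to 20149 for endothelium. They ran from 2936 to 5312 and 3790.5 to 4902 for red blood cells, from 13791 to 19219.6 and 13593 to 16539 for striated muscle, and from 381.4 to 610.4 and 211 to 491 for hindbrain and spinal cord. Of all these markers miR-196a-5p, of hindbrain and spinal cord, was the 1 at 0 in any library (3 of 8). Their part in the values of the 10 miRNAs was not tested.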

How the data were processed

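The authors deposited 1 table per library with 1 value for each of 1915 mature miRNA names, called a normalized count in the file headers. These values were handled as a score of no fixed unit, since whether and how the authors normalized them is not given in the sources used here. All were whole numbers with unequal library totals, so they may be raw counts. No 2 libraries were identical. The submitters' processing notes name build mm10 and the tools Bowtie 1.1.2, cutadapt 1.11, edgeR and HTSeq 0.6.1p1.

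Values were rescaled by a trimmed mean of log ratios (30% of ratios and 5% of levels trimmed; divisors from 0.840 to 1.20). miRNAs at 10 or more in at least 4 libraries, scaled to the median library, and at a total of 15 were tested (599, holding 99.99% of all values). limma 3.58.1 in R 4.3.3 compared log2(value + 1) by genotype, with the prior variance following the mean level and p-values adjusted by Benjamini and Hochberg's method (threshold 0.05), and likewise the arm ratios of hairpins whose lower arm averaged 20. The procedure was tested on simulated data with normal noise and independent libraries. That run does not measure how well changes as small as those of the 10 miRNAs would be found. Positions are from GENCODE M21 (GRCm38, the assembly mm10 names) and sequences from RefSeq, where all 10 miRNAs matched. Named were all 10 miRNAs with the opposite arms of miR-540 and miR-665, the 3 most abundant miRNAs of each neighbouring list and the 3 nearest profiles of the 3 most abundant members. miRNAs named beyond these were chosen after their values were seen. The members and lists were chosen with earlier results of these data known.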

Additional observations from a re-analysis of the deposited data

Results flagged for a closer look

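The summed rescaled value of the 10 miRNAs in wild-type replicate 2 was 16288, far from the other 3 wild-type libraries, which lay between 13157 and 13519. The gap lay in miR-770-5p (8914 in that library): without it, the sum in replicate 2 was 7374, the lowest of the wild-type libraries (7429 to 8136 in the others). Of 30 groups of 4 libraries examined this was the 1 with such a value, where chance gives about 1.5.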

How the results depend on the processing

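In each alternative run (values as deposited, upper quartile scaling, equal library totals, no filter, a stricter filter, other pseudocounts, no trend, the replicate block and each library left out) 0 of the members tested and 0 of all miRNAs tested passed an adjusted p of 0.05 by limma (7 members at the stricter filter, which left out miR-673-3p, miR-337-3p and miR-493-3p, and all 10 elsewhere); the lowest adjusted p of any of the 10 was 0.775. Of 177 alternative values for single members, 168 kept their direction and 9 reversed, to values between -0.027 and 0.14. The changes of filter and the run without trend cannot alter a log2 fold change, so their values among the 168 carry no information. The replicate block repeated the values of the same 6 libraries unblocked. With upper quartile scaling miR-493-3p was at 0.018, and 1 of the 10, miR-770-5p (0.37, adjusted p = 0.913), had an unadjusted p under 0.05; that scaling moved the median of all miRNAs from 0.02 to 0.07 and the share higher from 53.9% to 66.6%. Without 1 library that count ran from 0 to 1 (1 without wild-type replicate 2). Without 1 library miR-770-5p ran from 0.23 to 0.48, miR-770-3p from 0.10 to 0.28, miR-673-3p from 0.08 to 0.21, miR-337-5p from 0.05 to 0.17, miR-337-3p from -0.43 to -0.06, miR-540-3p from 0.05 to 0.24, miR-673-5p from -0.027 to 0.21, miR-493-5p from -0.10 to 0.0104, miR-493-3p from -0.14 to 0.11 and miR-665-3p from -0.20 to 0.0191, the median of the 10 from 0.04 to 0.15 (lowest without knockout replicate 5), and the arm ratio difference of miR-770 from -0.046 to 0.31, of miR-673 from -0.24 to 0.13 and of miR-337 from 0.21 to 0.54 (not fitted without wild-type replicate 2 or knockout replicate 4, where miR-337-3p fell under the arm minimum). The 24 miRNAs with an unadjusted p under 0.05 became 9 in the values as deposited (the cause was not tested), 50 without a filter (1330 tested), 14 at the stricter filter, set per library total (fewer miRNAs tested), 39 in the 6 libraries numbered 1, 2 and 4, and 18 to 34 without 1 library.

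Whether equal replicate numbers mark paired libraries is not in the labels. Deviations from the group means correlated at 0.0648, -0.0385 and 0.132 between the libraries numbered 1, 2 and 4, and in no case were the 2 libraries each other's best match. A replicate block on numbers 1, 2 and 4 gave miR-493-3p at 0.14 and the miR-673 arm ratio at 0.0022, the same as in those 6 libraries unblocked. With the block 2 of 141 arm ratios passed, those of miR-154, from the Dlk1-Dio3 region near Mirg, and miR-362, neither from the 6 hairpins; without the block 0 of 141 passed in the same 6 libraries.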
